A study of Mus musculus with 15 samples.

Results

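The genes described here are the alpha-defensins of Paneth cells and 3 kinds of antimicrobial enzyme that the same cells secrete, the ribonuclease Ang4, the phospholipase Pla2g2a and the lysozymes. Their probes were found by gene name on the array, and names that have since changed were resolved through the RefSeq accession of each probe. The genes reported are 16 of the 27962 gene names on the array, with 20 of its 41174 non-control probes, of which 18 were found by name and 2 by accession alone. Of the 20 probes, 14 carried 12 alpha-defensin names, 2 measured Ang4, 1 measured Pla2g2a and 3 measured 2 lysozymes. Current symbols are used where the accession gave one. Thus Defa21 is the probe that the array design calls 2010016B13Rik, Defa31 is Defcr-rs7, Defa3 is Defcr3 (probes 1 and 2), and Defa20, Defa22 and Defa23 are the design's Defcr20, Defcr22 and Defcr23. Lyz1 is the design's Lzp-s and Lyz2 its Lyzs (probes 1 and 2). Defa1, Defcr4, Defcr6, Defcr-rs2 (probes 1 and 2), Defcr-rs10 and Defcr-rs12 keep the names of the design.

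The mice were males that carried the Apc Min-FCCC allele beside a normal copy of Apc, on a C57BL/6J background, in every group. They were sorted by colonoscopy at 6 to 8 weeks of age into tumor-bearing and tumor-free animals and then fed chow with or without drugs for 7 days. Laser microdissected adenoma cells came from tumor-bearing mice given sulindac at 300 ppm with atorvastatin at 100 ppm (treated adenomas, 4 arrays) and from tumor-bearing mice on plain chow (untreated adenomas, 3 arrays). Laser microdissected colon epithelium came from tumor-bearing mice (4 arrays) and from tumor-free mice (4 arrays), and the labels name atorvastatin at 100 ppm for both. The protocol text names no atorvastatin-only arm for tumor-bearing mice, and the labels were followed. An adenoma set against epithelium therefore differs in tissue and in drug at once, and these cannot be told apart.

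Paneth cells sit at the base of small intestinal crypts and release granules of antimicrobial proteins into the lumen. Mouse alpha-defensins, also called cryptdins, are made as precursors that the matrix protease Mmp7 cuts into active peptides. The normal mouse colon holds few or no Paneth cells, while Wnt signalling through beta-catenin and Tcf factors, which loss of Apc turns on, is known to drive Paneth cell genes in the intestine, alpha-defensins and Mmp7 among them. Ang4 is a secreted ribonuclease with microbicidal activity that mouse Paneth cells and goblet cells make. Pla2g2a is a secreted phospholipase that attacks bacterial membranes, and it is known as Mom1, a modifier of polyp number in Min mice. C57BL/6J mice carry a frameshift in it, and RefSeq lists the gene as a transcribed pseudogene, so its probe measures a transcript and not an active enzyme. Lyz1 is the lysozyme of Paneth cells and Lyz2 that of macrophages and neutrophils.

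Levels are given on the log2 scale relative to the 75th percentile of an array's processed intensities, so that 0 is as bright as the probe at that percentile and each unit is a doubling. A probe was counted as measured on an array where the scanner software marked it as well above background. Between 56.5% and 75.5% of the non-control probes were so marked on an array. The protocol speaks of 3 to 4 biological replicates per condition, but several arrays of one group differed by less than the measurement noise of their spots, and these were counted as 1 sample. These were untreated adenomas 1 and 2, treated adenomas 2, 3 and 4, tumor-free epithelia 3 and 4 and tumor-bearing epithelia 1 and 3. The 15 arrays thus gave 10 samples, with n = 2 treated adenomas, 2 untreated adenomas, 3 tumor-bearing epithelia and 3 tumor-free epithelia, and p-values measure the spread between these. Array 2 of the tumor-bearing epithelium and array 2 of the tumor-free epithelium differed by about as much as their spot noise (SD of the log2 difference 0.183, spot noise 0.178), although their labels differ. They were kept apart, and calls lost without them are named. In microdissected tissue, fewer cells of a type and less RNA per cell cannot be told apart.

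The probes of related alpha-defensins resemble each other, and the sequences of the probes that carry the results are shown so that their likeness can be seen. Of the 91 pairs of alpha-defensin probes, 16 shared at least 80% of their bases over an ungapped overlap of at least 20 bases. The Defa1 and Defcr6 probes had 51 of 53 overlapping bases in common, and the Defa23 and Defcr6 probes had 39 of 42, so these probes can bind each other's transcripts. Likewise Defa3 probe 1 shared 50 of 57 overlapping bases with the Defcr4 probe and 33 of 36 with the Defa20 probe. The Defa20 and Defcr4 probes shared 34 of 39. Capitals mark the bases that differ from the Defcr6 probe inside the overlap:
Defcr6 probe: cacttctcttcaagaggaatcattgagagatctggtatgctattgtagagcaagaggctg
Defa1 probe: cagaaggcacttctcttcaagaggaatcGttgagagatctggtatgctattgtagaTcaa
Defa23 probe: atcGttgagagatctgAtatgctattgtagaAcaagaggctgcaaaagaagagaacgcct
The probe of Defa21, which carries the difference between treated and untreated adenomas, is further apart from these. It shared 34 of 47 overlapping bases with its closest relative, the Defa23 probe:
Defa21 probe: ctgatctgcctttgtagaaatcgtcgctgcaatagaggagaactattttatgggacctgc

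The design places 8 of the 14 alpha-defensin probes within 430878 bases of chromosome 8 on mouse build mm7. The Defa22 probe lies at chr8:20087339-20087398, and the Defa21 probe at chr8:20088020-20088079 starts 681 bases after it on the same strand. The design also lists Defa22 among the transcripts that the Defa21 probe matches. The Defa3 probes start 100 bases apart, at chr8:20438820-20438879 (probe 1) and chr8:20438720-20438780 (probe 2), and only probe 2 is also listed for Defa20, Defa23 and the transcript of Defcr4. The Defcr6 probe, at chr8:20517598-20518216, is also listed for the Defa1 transcript and for Defa24. The Defcr4 probe is also listed for Defa22 and a further alpha-defensin, and the Defa22 probe for another alpha-defensin. Levels given under a gene name are therefore those of its probe.

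Alpha-defensin transcripts were abundant in adenomas and close to background in epithelium. In treated adenomas 10 of the 14 probes were measured on every unflagged array and 4 on none, and in untreated adenomas 9 were measured on every unflagged array, 2 on some and 3 on none. In tumor-bearing and in tumor-free epithelium only Defa3 probe 2 was measured on every array, while 11 probes were measured on no array of the tumor-bearing and 9 on no array of the tumor-free epithelium. Defcr-rs2 (both probes) and Defcr-rs10 were measured on no adenoma array, and Defcr-rs12 on 1, an untreated adenoma at -5.38. These 4 probes were not tested in any comparison.

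**Figure D1:**
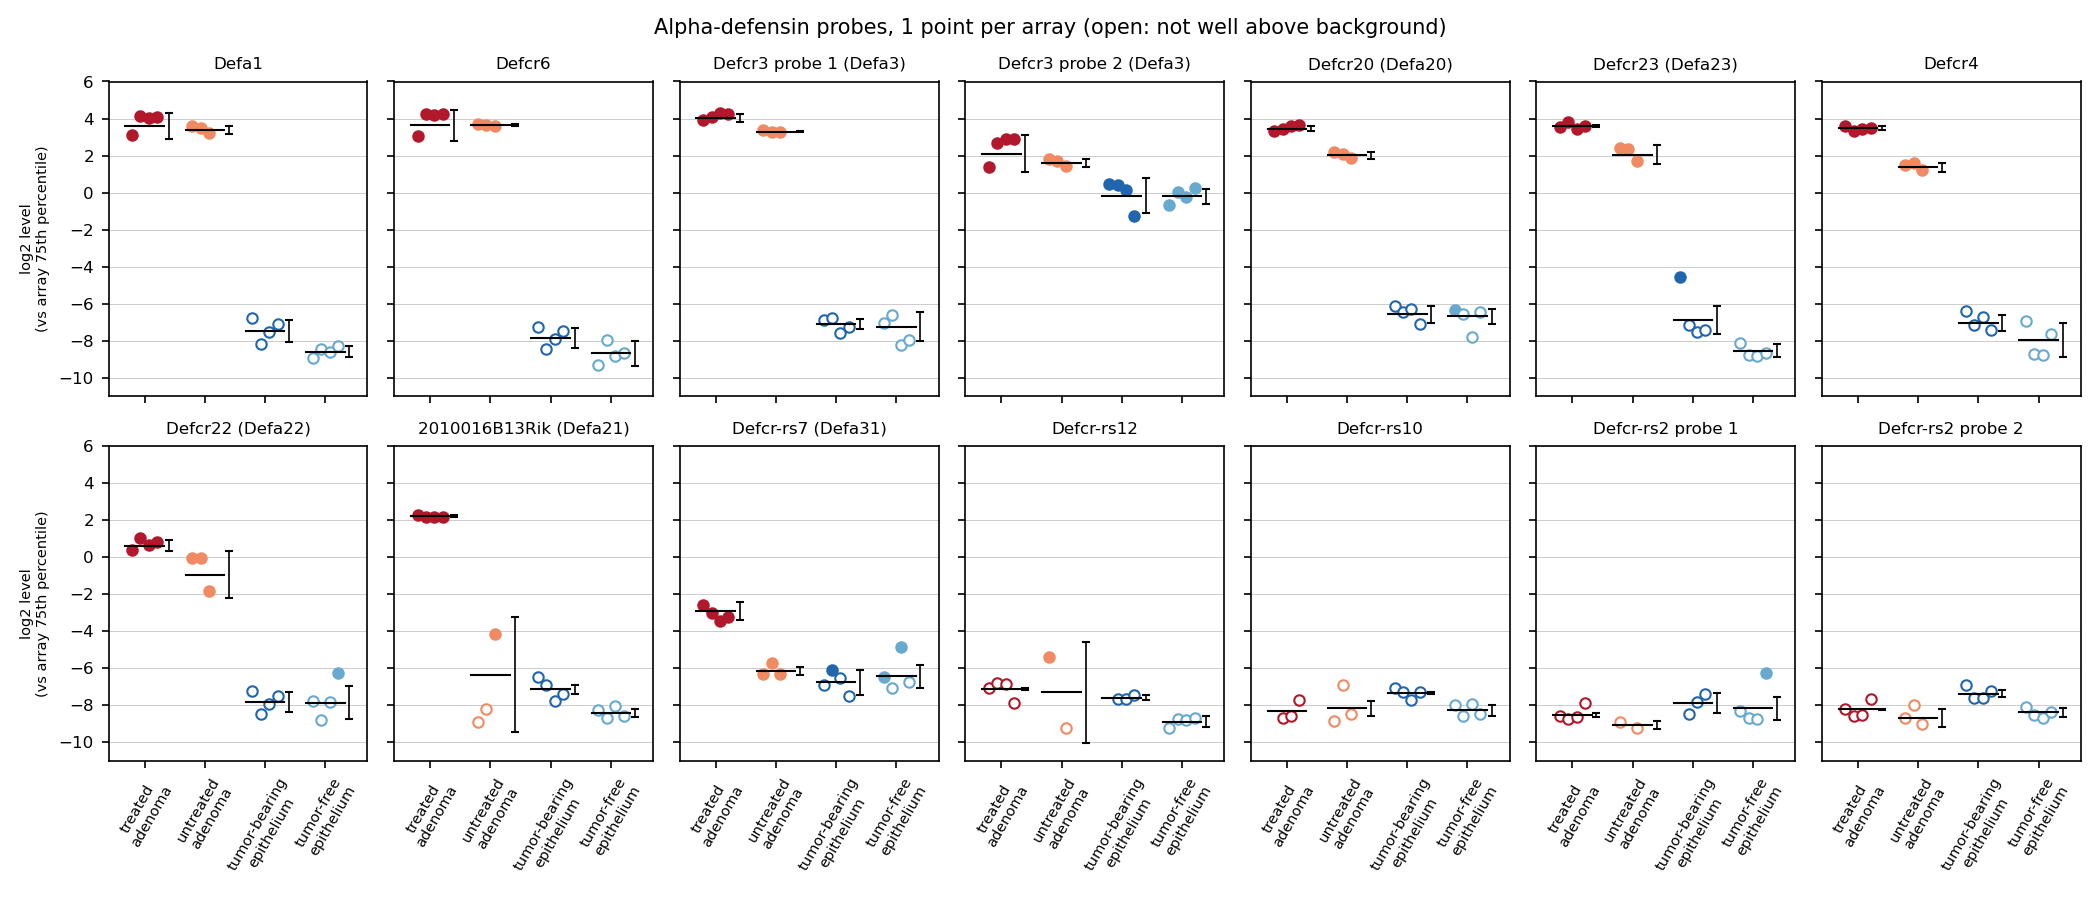
Levels of the 14 alpha-defensin probes on the log2 scale relative to the array's 75th percentile (vertical axis), 1 point per array in the 4 groups (horizontal axis), filled where the probe was well above background. Lines are means over samples and bars 1 SD. Probes such as Defa1 and Defcr6 lie above 3 in both adenoma groups and below -6 in both epithelia, while Defa21 lies above 2 only in the treated adenomas.

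Defa1 reached 3.09, 4.12, 4.05 and 4.08 in treated adenomas 1 to 4 and 3.58, 3.47 and 3.24 in untreated adenomas 1 to 3. In tumor-bearing epithelium it lay between -8.17 and -6.78 and in tumor-free epithelium between -8.94 and -8.28, and it was not well above background on any of these 8 arrays. The adenoma groups overlapped each other, and both lay above every epithelium array. Against tumor-bearing epithelium Defa1 was at least 552-fold higher in treated adenomas (adjusted p = 3.52e-06 by limma, as are all adjusted p-values here) and at least 479-fold higher in untreated adenomas (adjusted p = 9.72e-06). A bound of this kind sets the mean of the adenomas against the higher of the dim probe's own signal and the dimmest well-above-background signal of each epithelium array. The adjusted p-values printed beside bounds, here and below, belong to the fitted differences, and the bounds themselves were not tested. Those differences use epithelium signals that were not well above background, for probes tested only because the adenomas measured them. Since the groups did not overlap, the adenomas lay above the epithelium within each scan date that holds both as well. No scan date held both kinds of epithelium.

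Defcr6 followed the same pattern, with 3.04, 4.26, 4.21 and 4.23 in treated adenomas and 3.71, 3.64 and 3.60 in untreated adenomas. It was not well above background on any epithelium array, where it lay between -8.45 and -7.24 with tumors and between -9.30 and -7.96 without. It was at least 571-fold higher in treated adenomas (adjusted p = 5.76e-06) and at least 572-fold higher in untreated adenomas (adjusted p = 9.72e-06) than in tumor-bearing epithelium. Between the adenoma groups the fitted difference of Defcr6 was -0.00 with a 95% interval from -1.39 to 1.38, and that of Defa1 was 0.20 with an interval from -1.03 to 1.44.

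Defa3 probe 1 lay between 3.90 and 4.29 in treated adenomas and between 3.26 and 3.35 in untreated adenomas, and between -7.61 and -6.79 in tumor-bearing epithelium, where no array measured it. Its bounds against tumor-bearing epithelium were at least 761-fold for treated and at least 446-fold for untreated adenomas. Defa3 probe 2 was the exception among these probes. It was measured on every array, with 1.39 to 2.90 in treated adenomas, 1.44 to 1.83 in untreated adenomas, -1.26 to 0.48 in tumor-bearing epithelium and -0.65 to 0.23 in tumor-free epithelium. Its difference from tumor-bearing epithelium was 2.28 ± 0.63 (SE) for treated adenomas (adjusted p = 0.045) and 1.78 ± 0.63 for untreated adenomas (adjusted p = 0.11), so the 2 probes of Defa3 disagree on both the level in epithelium and the size of the difference. The call of probe 2 in treated adenomas was lost in 16 of 33 alternatives, among them the fits without array 1 of the treated adenomas (adjusted p = 0.0646), without treated adenomas 2, 3 and 4 (0.233) and without array 2 of both epithelia (0.0742).

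Defa20 was at 3.35, 3.46, 3.61 and 3.63 in treated adenomas and at 2.18, 2.09 and 1.87 in untreated adenomas, against -7.08 to -6.13 in tumor-bearing epithelium. It was at least 505-fold higher in treated and at least 184-fold higher in untreated adenomas. Defcr4 was at 3.59, 3.35, 3.45 and 3.49 in treated adenomas and at 1.51, 1.57 and 1.20 in untreated adenomas, with bounds of at least 522-fold and at least 119-fold over tumor-bearing epithelium. Both probes lay higher on every treated than on every untreated array. They share 34 of 39 overlapping bases and need not measure separate transcripts.

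Defa22 was dimmer, at 0.41 to 1.03 in treated adenomas and at -0.02, -0.03 and -1.86 in untreated adenomas, with bounds of at least 70.6-fold and at least 23.9-fold. Defa23 was measured on 1 tumor-bearing epithelium array, array 1, at -4.58, while the other 3 lay between -7.52 and -7.17. Its fitted differences from tumor-bearing epithelium were 10.48 ± 0.52 in treated and 8.93 ± 0.52 in untreated adenomas, and they rest largely on epithelium signals that were not well above background. With near-identical arrays as a random block both calls of Defa23 were lost (adjusted p = 0.0669 in treated and 0.123 in untreated adenomas), as was that of Defa22 in untreated adenomas (0.0582).

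In treated adenomas set against tumor-bearing epithelium, 12 of 16 tested member probes were higher and none lower, where 5.48% of all tested probes were called higher and 5.47% lower (10.9% in either direction). In untreated adenomas set against the same epithelium 10 of 15 were higher and none lower, where 4.36% were called higher and 4.68% lower (9.03% in either direction). Both comparisons use the same epithelium arrays. Most alpha-defensin probes entered the test only because the adenomas measured them, so these counts describe the probes and do not weigh for a difference.

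**Figure D2:**
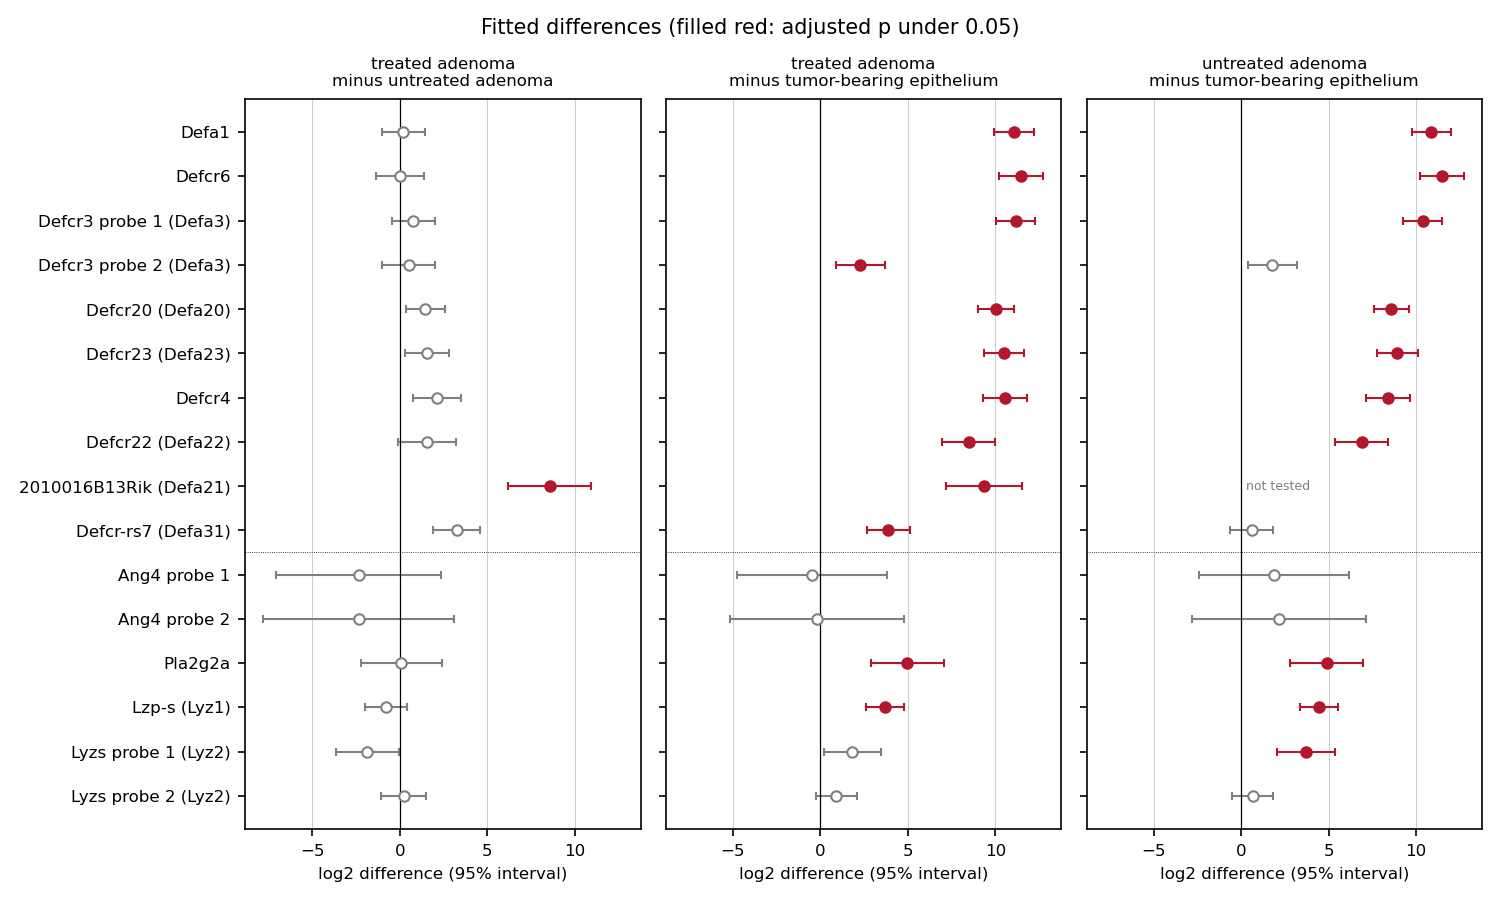
Fitted log2 differences (horizontal axis) of 16 member probes (vertical axis) with their 95% intervals in 3 comparisons, filled red where the adjusted p lay under 0.05. Most alpha-defensins lie above 6 in both comparisons with epithelium, where most epithelium signals were not well above background, so that these points have no exact size. In treated against untreated adenomas only Defa21 is filled.

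The drugs were set against plain chow in the adenomas. Of 16 member probes tested there, 1, Defa21, was higher in treated adenomas and none lower, where 0.178% of all tested probes were called (0.107% higher and 0.0711% lower). On every treated array 7 of the 10 tested alpha-defensin probes lay above every untreated array, a pattern that 21.9% of all tested probes shared. Of the 6 enzyme probes, 3 (both of Ang4 and Lyz2 probe 1) lay below every untreated array, as did 19.2% of all tested probes. The median difference of the 10 probes was 1.50, against 0.01 over all tested probes. Several of these 10 probes can bind each other's transcripts, so they are not 10 independent measures. Each adenoma group holds 2 samples, and Defa21 was tested only because the treated adenomas measured it. The counts and the median thus describe the probes and do not weigh for a difference.

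Defa21 was at 2.25, 2.16, 2.16 and 2.19 in treated adenomas and at -8.88, -8.20 and -4.16 in untreated adenomas, where only array 3 measured it. The treated arrays lay close together and every one stood far above the untreated arrays. The fitted difference was 8.56 ± 1.07 (SE, 95% interval 6.19 to 10.93, adjusted p = 0.024, n = 2 samples each), and it rests partly on untreated signals that were not well above background. The probe entered this test only because the treated adenomas measured it. Its SD between samples was 3.10 in untreated and 0.06 in treated adenomas, and 0.25 in tumor-bearing and 0.23 in tumor-free epithelium, where no array measured it. The SE, interval and p pool these spreads, so they do not measure the spread of the adenomas alone. The call was lost in 6 of 32 alternatives, with adjusted p between 1.96e-05 and 0.229 over all of them, among them the fit in which near-identical arrays entered as a random block (adjusted p = 0.229), the fit without array 1 of the treated adenomas (0.149), the fit without treated adenomas 2, 3 and 4 (0.0617) and the fit without array 2 of both epithelia (0.119). The fits without array 2 of the tumor-bearing epithelium (0.0619) and without tumor-free epithelia 3 and 4 (0.0609) lost it too, although these arrays enter only through the pooled spread. The difference itself stayed between 6.37 and 10.75. Within the 2 scan dates that hold both adenoma groups it was 10.45 (1 array each) and 6.33 (2 treated arrays and 1 untreated). Against tumor-bearing epithelium Defa21 was at least 212-fold higher in treated adenomas (adjusted p = 0.000332), and in untreated adenomas it was not tested.

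Defa31 was at -2.57, -3.00, -3.47 and -3.24 in treated adenomas and at -6.31, -5.72 and -6.31 in untreated adenomas. The groups did not overlap, but the difference of 3.26 ± 0.61 missed the threshold (adjusted p = 0.0963). It passed in treated adenomas against tumor-bearing epithelium (3.87 ± 0.55, adjusted p = 0.00184, and 0.331 with near-identical arrays as a random block) and not in untreated adenomas against it (0.61 ± 0.55, adjusted p = 0.513). Among the brighter alpha-defensins, the treated-minus-untreated difference was 2.14 ± 0.61 for Defcr4 (adjusted p = 0.271), 1.55 ± 0.57 for Defa23 (adjusted p = 0.363) and 1.45 ± 0.50 for Defa20 (adjusted p = 0.341). Whether the response of Defa21 differs from that of Defa1 and Defcr6 was not tested.

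Most alpha-defensin promoters that could be read hold a match to the core motif of Tcf factors. RefSeq promoters (assembly GRCm38.p6, from 250 bases before to 50 bases after the start) were matched for 5 alpha-defensin genes with a probe, and 16 alpha-defensin promoters were available in all. The motif ATCAAAG or TTCAAAG, the core that Tcf factors are known to bind, was searched on both strands. All 5 promoters held 2 copies, each of ATCAAAG on the coding strand, and 13 of the 16 held at least 1, against 8.65% of all 32851 promoters. Counted from the start of transcription, the copies began at -112 and -72 in Defa20, Defa21 and Defa22 and at -114 and -74 in Defa23 and Defa31. A match describes the sequence and is not a binding site shown in these cells. The promoters of Defa21 and Defa23 are shown with the motif in capitals, from chr8:21025295-21025594 and chr8:21054790-21055089, plus strand:
Defa21 promoter: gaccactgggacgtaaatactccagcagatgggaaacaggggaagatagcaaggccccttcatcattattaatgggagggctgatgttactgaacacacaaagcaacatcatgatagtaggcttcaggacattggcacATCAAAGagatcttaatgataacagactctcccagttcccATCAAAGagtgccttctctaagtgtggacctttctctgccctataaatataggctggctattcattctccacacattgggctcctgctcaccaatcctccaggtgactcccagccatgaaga
Defa23 promoter: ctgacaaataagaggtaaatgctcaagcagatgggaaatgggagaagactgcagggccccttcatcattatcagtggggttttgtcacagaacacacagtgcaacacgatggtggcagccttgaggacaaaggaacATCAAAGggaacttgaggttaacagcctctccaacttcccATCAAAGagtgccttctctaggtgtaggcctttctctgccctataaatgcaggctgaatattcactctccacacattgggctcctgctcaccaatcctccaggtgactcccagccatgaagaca
The Defa22 promoter was identical to that of Defa21 over all 300 bases, and the Defa31 promoter was identical to that of Defa23. The Defa20 promoter differed from that of Defa21 at 7 of 300 bases, so the 5 promoters are not 5 independent sequences. The 16 promoters belong to 1 gene family on chromosome 8 and several are closely alike. Thus 13 of 16 is not a count of independent sequences either, and it cannot be weighed against the 8.65%. Whether the motif has a part in the levels was not tested. Levels of different probes depend on the probe as well as on the transcript, so only the pattern across groups can be set side by side. The Defa21 probe was measured on all 4 treated and 1 of 3 untreated arrays and the Defa22 probe on all of both. The design lists Defa22 for the Defa21 probe too, and another alpha-defensin for the Defa22 probe. Neither signal can therefore be assigned to a single gene. Against tumor-bearing epithelium Defa23 was called higher in both kinds of adenoma and Defa31 in treated adenomas, and whether the genes of a pair differ was not tested. The promoters of Ang4, Lyz1 and Lyz2 held no copy of either motif.

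Mmp7, the protease that cuts alpha-defensin precursors, was higher in both kinds of adenoma. It lay between 5.17 and 6.27 in treated adenomas, between 5.93 and 6.33 in untreated adenomas, between -5.17 and -1.24 in tumor-bearing epithelium and between -5.67 and -4.62 in tumor-free epithelium. The adenomas lay above every epithelium array. Its difference from tumor-bearing epithelium was 9.34 ± 0.99 in treated adenomas (adjusted p = 0.000347) and 9.86 ± 0.99 in untreated adenomas (adjusted p = 0.000368), and that between treated and untreated adenomas was -0.52 ± 1.08 (adjusted p = 0.903).

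**Figure D3:**
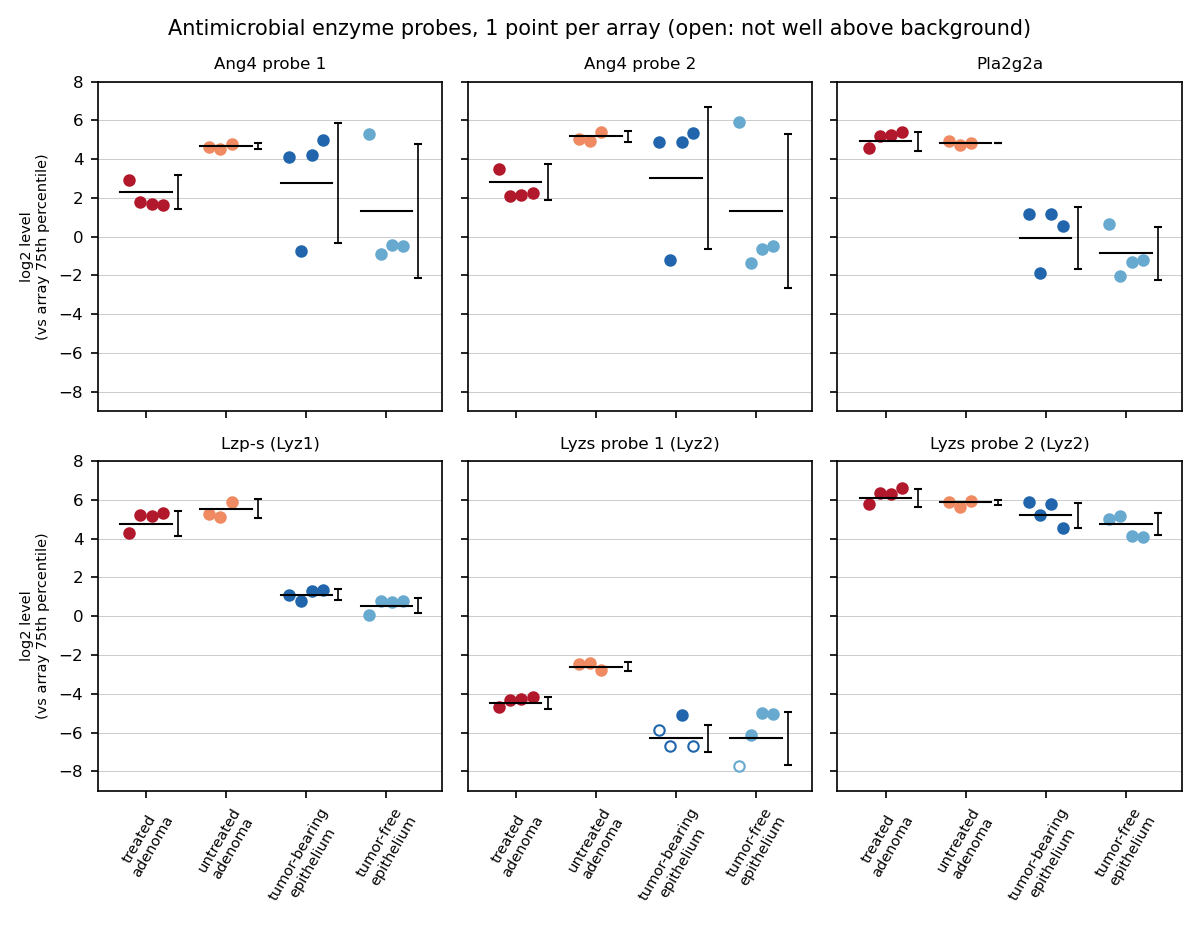
Levels of the 6 probes of antimicrobial enzymes on the log2 scale relative to the array's 75th percentile (vertical axis), 1 point per array in the 4 groups (horizontal axis), filled where well above background. Lines are means over samples and bars 1 SD. Pla2g2a and Lyz1 lie above 4 on every adenoma array and below 2 on every epithelium array, while Ang4 ranges from below 0 to above 4 within each epithelium group.

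Among the enzymes, Pla2g2a and Lyz1 were higher in both kinds of adenoma. Pla2g2a (chr4:138213292-138213351) was at 4.57, 5.17, 5.25 and 5.37 in treated adenomas and at 4.92, 4.75 and 4.82 in untreated adenomas. In tumor-bearing epithelium it was at 1.16, -1.87, 1.16 and 0.54 and in tumor-free epithelium at 0.67, -2.004, -1.31 and -1.19. No adenoma array overlapped an epithelium array, and the adenoma groups overlapped each other. Pla2g2a was 31.4-fold higher in treated adenomas (4.97 ± 0.95, adjusted p = 0.00845) and 29.5-fold higher in untreated adenomas (4.88 ± 0.95, adjusted p = 0.0114) than in tumor-bearing epithelium. Without array 2 of the tumor-bearing epithelium the log2 difference was 4.07 in treated and 3.97 in untreated adenomas. Within single scan dates the difference was 3.41 and 4.62 for treated and 5.28 and 3.59 for untreated adenomas. The call in untreated adenomas was lost without untreated adenoma 3 (adjusted p = 0.096) and without untreated adenomas 1 and 2 (0.0804), and that in treated adenomas without treated adenomas 2, 3 and 4 (0.0678).

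Lyz1 (chr10:116796083-116796142) was at 4.31, 5.23, 5.19 and 5.30 in treated adenomas and at 5.27, 5.11 and 5.90 in untreated adenomas, against 0.80 to 1.33 in tumor-bearing and 0.08 to 0.79 in tumor-free epithelium. It was measured on every array, and the adenomas lay above every epithelium array. The difference from tumor-bearing epithelium was 3.67 ± 0.49 in treated adenomas (12.7-fold, adjusted p = 0.00124) and 4.44 ± 0.49 in untreated adenomas (21.7-fold, adjusted p = 0.000663). Within single scan dates it was 3.02 and 3.90 for treated and 4.32 and 3.82 for untreated adenomas. The design lists Lyz2 as a further match of this probe.

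Lyz2, the lysozyme of macrophages and neutrophils, gave different pictures with its 2 probes. Probe 2 (chr10:116785279-116785338) was bright on every array, at 5.77 to 6.59 in treated adenomas, 5.65 to 5.96 in untreated adenomas, 4.57 to 5.90 in tumor-bearing epithelium and 4.06 to 5.15 in tumor-free epithelium. It passed in no comparison, with 0.89 ± 0.53 in treated and 0.67 ± 0.53 in untreated adenomas against tumor-bearing epithelium (adjusted p = 0.291 and 0.453). These differences were 1.27 and 1.18 by quantile normalization (adjusted p = 0.0293 and 0.0423) and 1.27 and 1.30 in the authors' deposited table (0.0236 and 0.0255), and that of treated adenomas was 1.04 with slide as a random block (0.0414). Probe 1 (chr10:116790004-116790063) was dim, at -4.68 to -4.18 in treated adenomas, -2.75 to -2.43 in untreated adenomas and -6.71 to -5.10 in tumor-bearing epithelium, where 1 of 4 arrays measured it. Only its difference between untreated adenomas and tumor-bearing epithelium passed (3.69 ± 0.74, adjusted p = 0.013), and that call was lost in 4 of 31 alternatives: without untreated adenoma 3 (adjusted p = 0.0906), without untreated adenomas 1 and 2 (0.0997), without array 2 of both epithelia (0.0635) and with near-identical arrays as a random block (0.0547).

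Ang4 did not follow the alpha-defensins. Its probe 2 (chr14:47098071-47098130) was at 3.47, 2.10, 2.17 and 2.25 in treated adenomas and at 5.03, 4.92 and 5.37 in untreated adenomas. In tumor-bearing epithelium it was at 4.90, -1.22, 4.89 and 5.33, and in tumor-free epithelium at 5.91, -1.36, -0.61 and -0.47. Every treated adenoma lay below every untreated adenoma, and within each epithelium group some arrays were as high as the untreated adenomas and others below 0. Probe 1 (chr14:47097546-47097585) parted the arrays in the same way, although arrays close together changed their order. It was at 1.61 to 2.92 in treated adenomas, 4.50 to 4.76 in untreated adenomas and -0.76 to 4.96 in tumor-bearing epithelium.

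No Ang4 difference passed. The treated-minus-untreated difference was -2.35 ± 2.12 for probe 1 (95% interval -7.06 to 2.36, adjusted p = 0.726) and -2.35 ± 2.45 for probe 2 (adjusted p = 0.772). The errors are wide because the spread is pooled over all 4 groups and the epithelium arrays differ by several units. Within the 2 scan dates that hold both adenoma groups, the differences of probe 1 were -1.58 (1 array each) and -3.11 (2 treated arrays and 1 untreated).

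Tumor-bearing and tumor-free epithelium were compared to ask whether the normal mucosa of mice with and without adenomas differs. Of 6 member probes tested there (Ang4 probes 1 and 2, Pla2g2a, Lyz1, Lyz2 probe 2 and Defa3 probe 2), none passed by limma, where the share of all tested probes called was 0.0% in either direction. At an unadjusted p under 0.05, 680 of all 24880 tested probes and none of these 6 passed. The differences were 1.47 ± 1.73 for Ang4 probe 1, 0.80 ± 0.85 for Pla2g2a, 0.56 ± 0.44 for Lyz1 and 0.03 ± 0.57 for Defa3 probe 2 (adjusted p between 0.996 and 0.999 for all 6). Leaving out single arrays moved Ang4 probe 1 between 0.36 (without array 2 of the tumor-free epithelium) and 3.46 (without array 1 of it), and Pla2g2a between 0.23 (without array 2 of the tumor-free epithelium) and 1.71 (without array 2 of the tumor-bearing epithelium). Lyz1 alone lay higher on every tumor-bearing than on every tumor-free array, as did 3.12% of all tested probes, while 2.97% lay lower on every one. Its groups were parted only by 0.796 on array 2 of the tumor-bearing against 0.795 on array 4 of the tumor-free epithelium.

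The genes most like the alpha-defensins across samples were found by Pearson's r with the mean level of the 14 alpha-defensin probes, over the 10 samples and 14513 candidate genes. Since the samples fall into adenomas and epithelium, r mainly ranks genes by how sharply they separate these, and the genes are a description. The closest was Serpinb11 (r = 0.997), a serpin family member, followed by Psapl1 (0.992) and Prr18 (0.991). Il23a (0.988) encodes a cytokine subunit and Elk3 (0.988) an ETS transcription factor. Scx (0.986) is a transcription factor of tendon and Ankrd1 (0.986) an ankyrin repeat protein, and Erich3 (0.986) completed the 8. Serpinb11 had a mean level of -0.33 in treated adenomas, -1.82 in untreated adenomas, -7.54 in tumor-bearing epithelium and -8.41 in tumor-free epithelium, and no epithelium array measured it. Psapl1, which every array measured, had means of 1.71 in treated adenomas, -0.05 in untreated adenomas, -4.79 in tumor-bearing epithelium and -4.79 in tumor-free epithelium.

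The other genes of the Paneth cell programme did not all move with the defensins. Of 20 genes on the array 19 were tested in each comparison. In treated adenomas against tumor-bearing epithelium 2 were higher and 1 lower (median 0.01, against -0.01 over all tested probes), where 5.48% of all tested probes were called higher and 5.47% lower. In untreated adenomas against it 5 were higher and 2 lower (median 1.10, against -0.02), where 4.36% of all tested probes were called higher and 4.68% lower. In treated against untreated adenomas none was called (median -0.75, against 0.01). Wnt3, a Wnt ligand that Paneth cells make, was higher in treated (5.95 ± 0.95, adjusted p = 0.00336) and untreated adenomas (7.71 ± 0.95, adjusted p = 0.00126). Itln1, an intelectin that binds microbial sugars, was 5.07 ± 1.27 higher in untreated adenomas (adjusted p = 0.0395), and its 4.55 ± 1.27 in treated adenomas missed the threshold (adjusted p = 0.0513). Sox9, a transcription factor that Paneth cells need, was 1.75 ± 0.48 higher in untreated adenomas (adjusted p = 0.0485) and 1.00 ± 0.48 in treated adenomas (adjusted p = 0.201).

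Spdef, a transcription factor of goblet and Paneth cell maturation, was lower in treated adenomas than in tumor-bearing epithelium (-4.34 ± 0.81, adjusted p = 0.00742), with a difference of -1.16 ± 0.81 in untreated adenomas (adjusted p = 0.388). Atoh1, which secretory cells need, was measured on no treated adenoma array and on 2 of 3 untreated adenoma arrays, 2 of 4 tumor-bearing and 4 of 4 tumor-free epithelium arrays. Ephb2, a receptor of crypt cells (1.78 ± 0.48, adjusted p = 0.0475), completed the 5 genes higher in untreated adenomas. Egf, a growth factor of Paneth cells, was lower in untreated adenomas than in tumor-bearing epithelium (-3.34 ± 0.63, adjusted p = 0.01), as was Fzd5, a Wnt receptor that Paneth cells need (-4.39 ± 1.11, adjusted p = 0.0368). Ephb2 and Fzd5 are named because the counts are small and were chosen after their values were seen.

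**Figure D4:**
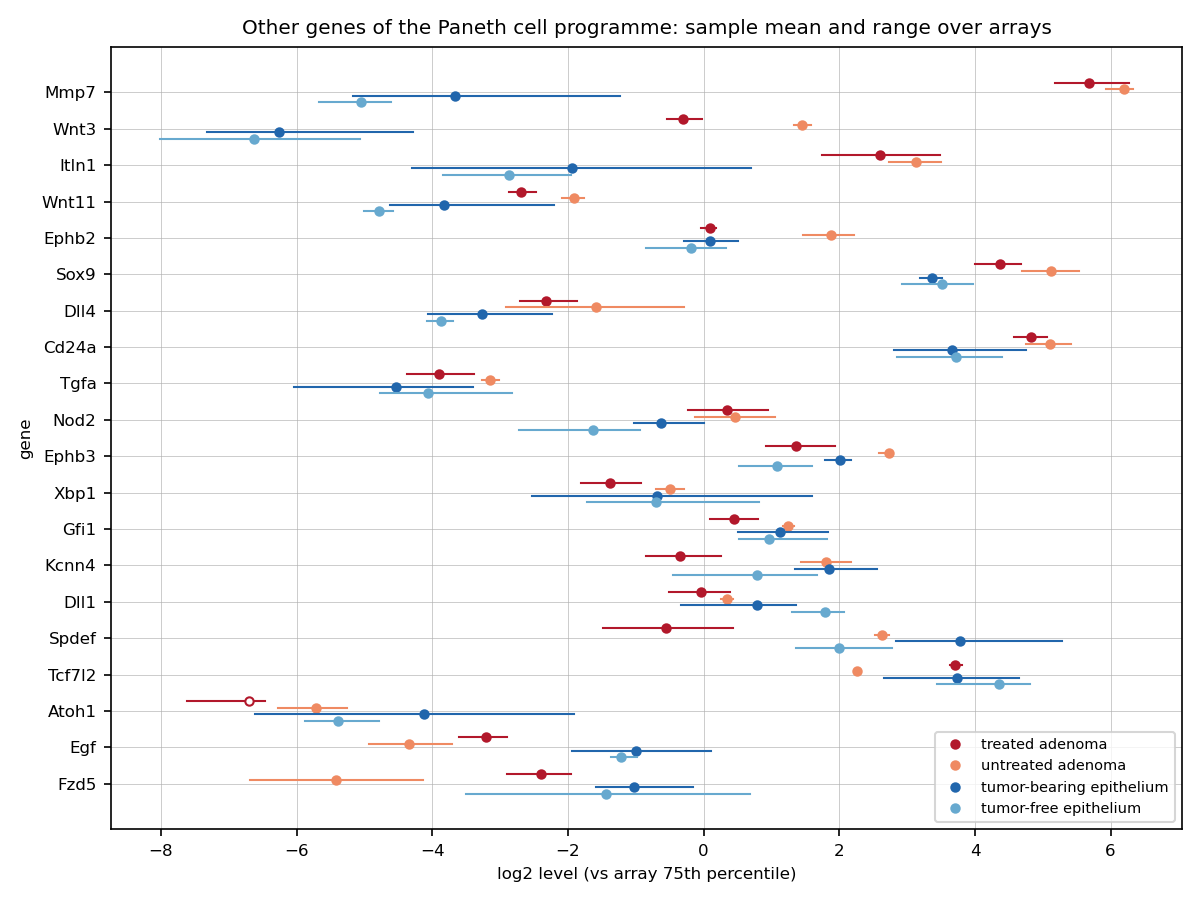
Log2 levels relative to the array's 75th percentile (horizontal axis) of 20 further genes of the Paneth cell programme (vertical axis) in the 4 groups. Points are means over samples, open where no array measured the gene, and lines run over all arrays of the group. Mmp7, Wnt3 and Itln1 lie higher in both adenoma groups, and Spdef lies lowest in the treated adenomas.

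Most relatives of the enzymes were not called in any comparison, and neither was Ang4. The summed level of 5 ribonuclease genes related to Ang4 nevertheless parted the arrays much as Ang4 did. In multiples of the 75th percentile it was 10.7 to 15.5 in treated and 27.6 to 46.6 in untreated adenomas. It was 25.2, 5.8, 24.9 and 47.0 on tumor-bearing epithelium arrays 1 to 4. On tumor-free epithelium arrays 1 to 4 it was 43.3, 4.9, 8.7 and 9.2. Which genes carry this pattern was not tested. Of 5 ribonuclease genes related to Ang4 on the array, Rnase1, the pancreatic-type ribonuclease, was higher in treated (3.75 ± 0.63, adjusted p = 0.00465) and in untreated adenomas (3.97 ± 0.63, adjusted p = 0.00417) than in tumor-bearing epithelium. Rnase6 was lower in both (-2.03 ± 0.53 and -2.29 ± 0.53, adjusted p = 0.0359 and 0.0259), and Ang, Ang2 and Rnase4 were not called in any comparison. Of 11 further phospholipase A2 genes, 9 could be tested for treated and 10 for untreated adenomas against tumor-bearing epithelium. None passed as higher, but only 5.48% and 4.36% of the probes tested in these 2 comparisons did. With so few genes, the absence of higher ones does not set these relatives apart from other probes. Pla2g12b was lower in treated adenomas (-2.77 ± 0.75, adjusted p = 0.0416) and Pla2g5 in untreated adenomas (-2.64 ± 0.63, adjusted p = 0.0291) than in tumor-bearing epithelium.

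Other antimicrobial genes of the gut were mixed. Of 26 on the array, 21 were tested in treated adenomas against tumor-bearing epithelium, and 6 were higher and 4 lower (median -0.78), to be read against the shares over all tested probes given above. In untreated adenomas 22 were tested, of which 7 were higher and 5 lower (median 0.46). Reg3b, a lectin that kills bacteria, differed by 11.10 ± 1.45 in untreated adenomas (adjusted p = 0.00166), and Lcn2, which withholds iron from bacteria, by 8.92 ± 1.12 in treated (adjusted p = 0.000917) and 9.30 ± 1.12 in untreated adenomas (adjusted p = 0.00115). Zg16, a goblet cell lectin, was lower in treated than in untreated adenomas (-6.48 ± 1.02, adjusted p = 0.0472). It was also lower in treated (-10.30 ± 0.93, adjusted p = 0.000146) and in untreated adenomas (-3.81 ± 0.93, adjusted p = 0.0318) than in tumor-bearing epithelium.

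Among markers of other cells, those of neutrophils summed higher on every adenoma than on every epithelium array, and those of macrophages did not. The summed level of 11 neutrophil markers, in multiples of the 75th percentile, was 16.7 to 51.2 in treated adenomas, 21.8 to 24.7 in untreated adenomas, 0.163 to 0.764 in tumor-bearing epithelium and 0.212 to 0.678 in tumor-free epithelium. Of 8 tested in each comparison of adenomas with tumor-bearing epithelium 5 were higher, where 5.48% of all tested probes were in treated and 4.36% in untreated adenomas. Most of the 8 entered the test because the adenomas measured them, and of the 5 only Csf3r, a receptor for a granulocyte growth factor, was measured on every tumor-bearing epithelium array (3.62 ± 0.78 in treated and 4.64 ± 0.78 in untreated adenomas, adjusted p = 0.0151 and 0.00548). Elane, a neutrophil elastase, was measured on no treated and 1 untreated adenoma array, and on no epithelium array. The summed level of 12 macrophage markers overlapped between all groups, at 15.9 to 38.5 in treated adenomas, 17.6 to 25.4 in untreated adenomas, 19.97 to 42.0 in tumor-bearing and 17.3 to 31.5 in tumor-free epithelium. Of these 12, Cd163 was lower in both kinds of adenoma and no other gene was called.

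Markers of epithelial cell types were summed in the same way. The 12 markers of absorptive colonocytes summed to 20.6 to 45.2 in treated and 62.9 to 102.5 in untreated adenomas. In tumor-bearing epithelium they summed to 219 to 567 and in tumor-free epithelium to 448 to 555. All 12 were tested, and 9 were lower in treated and 6 in untreated adenomas than in tumor-bearing epithelium, with none higher. Over all tested probes 5.47% were called lower and 5.48% higher in treated adenomas, and 4.68% lower and 4.36% higher in untreated adenomas. The 11 goblet cell markers summed to 105 to 166, 273 to 308, 566 to 763 and 446 to 618 in the same groups. All 11 were tested, and 8 were lower in treated and 3 in untreated adenomas than in tumor-bearing epithelium, with none higher. The 16 markers of small intestinal enterocytes summed to 4.44 to 13.1 in treated adenomas, 3.66 to 8.05 in untreated adenomas, 13.8 to 62.2 in tumor-bearing and 13.4 to 41.6 in tumor-free epithelium. Of these 16, 9 were tested in treated adenomas against tumor-bearing epithelium, with 4 lower and 1 higher. In untreated adenomas 10 were tested, with 5 lower and 1 higher. The gene that was higher was Cubn (6.82 ± 0.59 in treated and 5.55 ± 0.59 in untreated, adjusted p = 0.000106 and 0.00053). The 10 markers of deep crypt secretory cells of the colon summed to 98.5 to 143 in treated and 182 to 241 in untreated adenomas. In tumor-bearing epithelium they summed to 203 to 284 and in tumor-free epithelium to 178 to 239. All 10 were tested. Against tumor-bearing epithelium 3 were lower and none higher in treated adenomas, and 1 was higher and none lower in untreated adenomas. None was called in treated against untreated adenomas, where 0.178% of all tested probes were. The part of these cells in the levels of the alpha-defensins and enzymes was not tested.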

How the data were processed

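In 15 samples, RNA from microdissected cells went through 2 rounds of linear amplification, Cy3 labelling and hybridisation to 1-colour Agilent mouse arrays, per the labels' protocols. The authors deposited scanner files that hold each spot's processed intensity, which Agilent Feature Extraction 9.5.3 (version per the submitters' processing notes) corrected for background, with flags for outlying spots and for spots well above background, per the file headers. The authors' deposited value table holds log2 values and served as an alternative. Its 4 columns of tumor-bearing epithelium matched the scanner files of that group in reverse order.

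Levels are log2 intensities less the 75th percentile of their array, without control spots and outlier-flagged spots. Near-identical arrays were averaged. limma 3.58.1 (R 4.3.3) was fitted to all probes and 4 groups at once, two-sided, with Benjamini-Hochberg adjustment over the probes tested and a threshold of 0.05. Testing required a signal well above background on every unflagged array of 1 of both groups compared. The fit was tested on simulated data. SDs and n are over samples, and the number of arrays limits the precision. Of 41174 probes, 6536 could not be named through the RefSeq tables or the files. 1 further alpha-defensin and 1 other gene are not reported here. Members and gene lists were chosen with earlier results of these data known. From each list the genes named are up to 4 with the highest absolute moderated t in a comparison and a fixed few. Alternatives changed the background correction, normalization, filters, blocks and arrays included.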

Additional observations from a re-analysis of the deposited data

Results flagged for a closer look

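Single arrays stood apart from the other 3 of their group in 13 of 36 tested sets of 4 arrays, where chance flags about 1 set in 20 if the arrays are independent. Several arrays of a group were near-identical here, so that rate is no yardstick for these sets. In treated adenomas, array 1 stood apart from arrays 2, 3 and 4, which counted as 1 sample: it was the lowest for Defa1 (3.09, others from 4.05), Defcr6 (3.04, others from 4.21), Defa3 probe 2 (1.39, others from 2.67) and Lyz1 (4.31, others from 5.18), and the highest for Ang4 probe 1 (2.92, others up to 1.78) and probe 2 (3.47, others up to 2.25).

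In tumor-bearing epithelium, array 2 was the lowest for Ang4 probe 1 (-0.76, others from 4.10) and probe 2 (-1.22, others from 4.88). In tumor-free epithelium, array 1 was the highest for Ang4 probe 1 (5.30, others up to -0.40) and probe 2 (5.91, others up to -0.47). Array 1 of the tumor-free epithelium was also the lowest for Lyz1 (0.077, others from 0.75). Near background, Defa20 on array 3 of the tumor-free epithelium (-7.81, others from -6.56) and Defa23 on array 1 of the tumor-bearing epithelium (-4.58, others up to -7.17) stood apart.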

How the results depend on the processing

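Of the member probes called in a comparison, 705 of 738 values recomputed under alternatives kept their direction and their side of the threshold and 33 lost the threshold; none reversed. Among uncalled probes, 30 values passed the threshold under an alternative. In treated against untreated adenomas the count of 1 called probe was 4 with each of the 15 arrays as a sample, 4 with a replicate block, 4 with slide as a random block, 5 with scan date as a fixed block without tumor-free epithelium, 3 in the authors' table, 2 with normexp and 2 with array weights. It was 0 with near-identical arrays as a random block, with a filter for signal in both groups, without treated adenomas 2, 3 and 4, without tumor-free epithelia 3 and 4 and without array 2 of both epithelia. Leaving out single arrays gave 0 to 1. With signal required in both groups, which leaves fewer probes tested, 2 were called in untreated and 2 in treated adenomas against tumor-bearing epithelium; the other alternatives gave 7 to 11 and 9 to 14. In tumor-bearing against tumor-free epithelium every alternative that could be fitted gave 0; scan date as a block could not be fitted there.

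Reversals met only uncalled differences, and their cause was not tested. In treated against untreated adenomas Defcr6 was 0.28 with 15 arrays, 0.0034 with the random block, 0.22 with the replicate block, 0.10 with scan date, 0.19 with slide, 0.025 by quantile normalization and 0.036 without untreated adenomas 1 and 2; single arrays left out gave -0.039 to 0.60. Lyz2 probe 2 was -0.020 in the authors' table. Without treated adenomas 2, 3 and 4, Pla2g2a was -0.25, Defa1 -0.29, Defa3 probe 2 -0.21 and Lyz2 probe 2 -0.092. Between the epithelia Defa3 probe 2 was -0.10 with slide, -0.0089 by quantile normalization, -0.029 in the authors' table, -0.21 without tumor-bearing epithelia 1 and 3 and -0.15 without array 2 of both, and -0.27 to 0.57 with single arrays left out. Against tumor-bearing epithelium, Defa31 in untreated adenomas was -0.24 by normexp. In treated adenomas Ang4 probe 2 was 0.067 by quantile normalization and 0.0057 in the authors' table. Ang4 probes 1 and 2 were 0.14 and 0.47 without treated adenomas 2, 3 and 4, 0.21 and 0.77 without tumor-bearing epithelia 1 and 3, and -2.25 to 0.61 and -2.29 to 0.98 with single arrays left out. Where a group is left with 1 sample, that sample is assumed to vary like the other groups. Signals near background limit the fold changes of dim alpha-defensins. Same-numbered samples of different groups correlated at -0.20 to 0.49 in their deviations from group means, with 8 of 21 pairs over 0.1, so the numbers were not taken as pairs.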
